A study of Mus musculus with 5 samples.

Results

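The Hox cluster genes were followed across the 5 expression arrays of a study of alveolar epithelial type II (AEC-II) cells, the surfactant-producing cells of the lung. Members were the probes that carried exactly 1 gene symbol made of Hox, a cluster letter from a to d and a number, with the brightest probe on average taken for a gene with several. The rule used no difference between arrays. It found 36 Hox genes, of 22180 genes with such a probe. Hox genes without such a probe were not analysed here. The set held 9 Hoxa genes on chromosome 6, 10 Hoxb genes on chromosome 11, 9 Hoxc genes on chromosome 15 and 8 Hoxd genes on chromosome 2. By paralog group, 10 were anterior (groups 1 to 4), 11 central (groups 5 to 8) and 15 posterior (groups 9 to 13).

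Hox genes encode homeodomain transcription factors that set position along the body axis and, for the posterior genes, along the limbs. Within a cluster the genes lie in the order in which they are used, so that anterior genes act nearer the head and posterior genes nearer the tail and the digits. The lung arises from the foregut, where anterior and central genes are used in the embryo, and its mesenchyme carries more of this expression than its epithelium. Fibroblasts keep a Hox pattern of the body site they came from, and feeder fibroblasts are usually prepared from the trunk and limbs of embryos, where posterior genes are also active. The contrast of anterior with posterior genes was therefore examined as a mark of lung against feeder origin.

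By the study's account, the cells came from mice with both transgenes R26-rtTA/Col1a1::tetO-4F2A. The transgenes express Oct4, Sox2, Klf4 and c-Myc when doxycycline (Dox) is given, so that Day0 and 2WND cells carry them without Dox. Where the study describes the array profiling it also names an Oct4-GFP reporter allele in these mice. The sample labels give no genotype and list all 5 samples as adult lung. Day0 was AEC-II cells fresh from the lung, for which the study used a CD45neg CD31neg EpCAMpos gate. 2WND was the same cells after 2 weeks of culture without Dox. 2WND+2W+D had 2 further weeks with Dox, and 2WND+2W+D+2W-D another 2 weeks after Dox was removed. The fifth condition was labelled iPS, with the source of the line not given in the sources used here. Cells were grown in Matrigel on inserts coated with mouse embryonic fibroblast feeders, in epithelial medium for the first 2 weeks, and were then passaged into an embryonic stem cell medium with Dox. Dox, passage, medium and time in culture therefore changed together and cannot be told apart. The sources used here do not say whether feeders were removed before RNA was taken. RNA of separate samples was used in equal amounts for each condition, but 1 array per condition was deposited, so that no difference below has a replicate check and no test was possible. In such bulk RNA, fewer cells of a type and less RNA per cell cannot be told apart.

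The values are log2 expression values of Affymetrix Mouse Gene ST arrays. The median of all deposited values, 4.78, served as a floor: values below it were raised to it before differences were taken, and a gene was called higher or lower at a difference of 1, which is 2-fold. Levels of different genes are not set against each other, since probes differ in brightness. As a scale for reading the differences, 2WND and 2WND+2W+D+2W-D, the 2 arrays most alike, had a robust spread of 0.23 over all genes and 0.28 over the 10049 genes in the Hox range of mean values (3.51 to 6.52). Array medians lay between 4.71 and 4.83. The labels were checked against markers. The 5 AEC-II markers (Sftpc, Sftpb, Lamp3, Abca3 and Slc34a2) read 12.40 to 13.43 on Day0, 9.01 to 13.49 over the 3 cultures and 3.55 to 6.92 on iPS, where the 5 pluripotency markers read 6.34 to 12.15. The genes of the induced factors did not mark the Dox label. From 2WND to 2WND+2W+D, Pou5f1 (Oct4) read 5.09 and 5.32, Klf4 8.65 and 9.12 and Myc 8.26 and 8.37. Sox2 read 6.50 on 2WND and 4.40 on 2WND+2W+D, at least 3.28-fold lower, and 7.01 after withdrawal. By qRT-PCR, the study reported that transgene expression decreased after Dox was withdrawn. Whether the array probes of these genes read the transgene was not tested. Dox below therefore means the array labelled 2WND+2W+D. The 3 endothelial markers read 6.85 to 9.18 on Day0 in spite of the CD31neg gate. The 10 fibroblast markers read 3.37 to 8.37 on Day0, with Pdgfra, Lum and Postn below the floor, 8.12 to 12.16 on 2WND, 9.37 to 12.94 on 2WND+2W+D, 8.01 to 12.27 on 2WND+2W+D+2W-D and 6.29 to 12.23 on iPS.

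Most Hox genes were faint on most arrays. At or above the floor were 12 of the 36 genes on Day0, 16 on 2WND, 25 on 2WND+2W+D, 17 on 2WND+2W+D+2W-D and 12 on iPS, whereas the share of all genes at the floor moved only between 60.3% and 61.4%. The median Hox value was 4.39 on Day0, 4.69 on 2WND, 5.25 on 2WND+2W+D, 4.75 on 2WND+2W+D+2W-D and 4.58 on iPS. Across the 5 arrays, 27 Hox genes reached the floor at least once, 9 on every array and 7 on the array labelled 2WND+2W+D alone. Only 5 (Hoxb9, Hoxc6, Hoxc8, Hoxd8 and Hoxd10) reached the 75th percentile of all values, 6.82, on any array. The 9 genes below the floor throughout were Hoxa3, Hoxa5, Hoxb8, Hoxb13, Hoxc5, Hoxc11, Hoxd1, Hoxd9 and Hoxd12, with values from 3.14 to 4.63. Among them was Hoxa5, which lung development in the mouse requires and which is named here for that role. It read 3.39 on Day0, 4.23 on 2WND, 4.22 on 2WND+2W+D, 4.25 on 2WND+2W+D+2W-D and 3.86 on iPS.

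**Figure D1:**
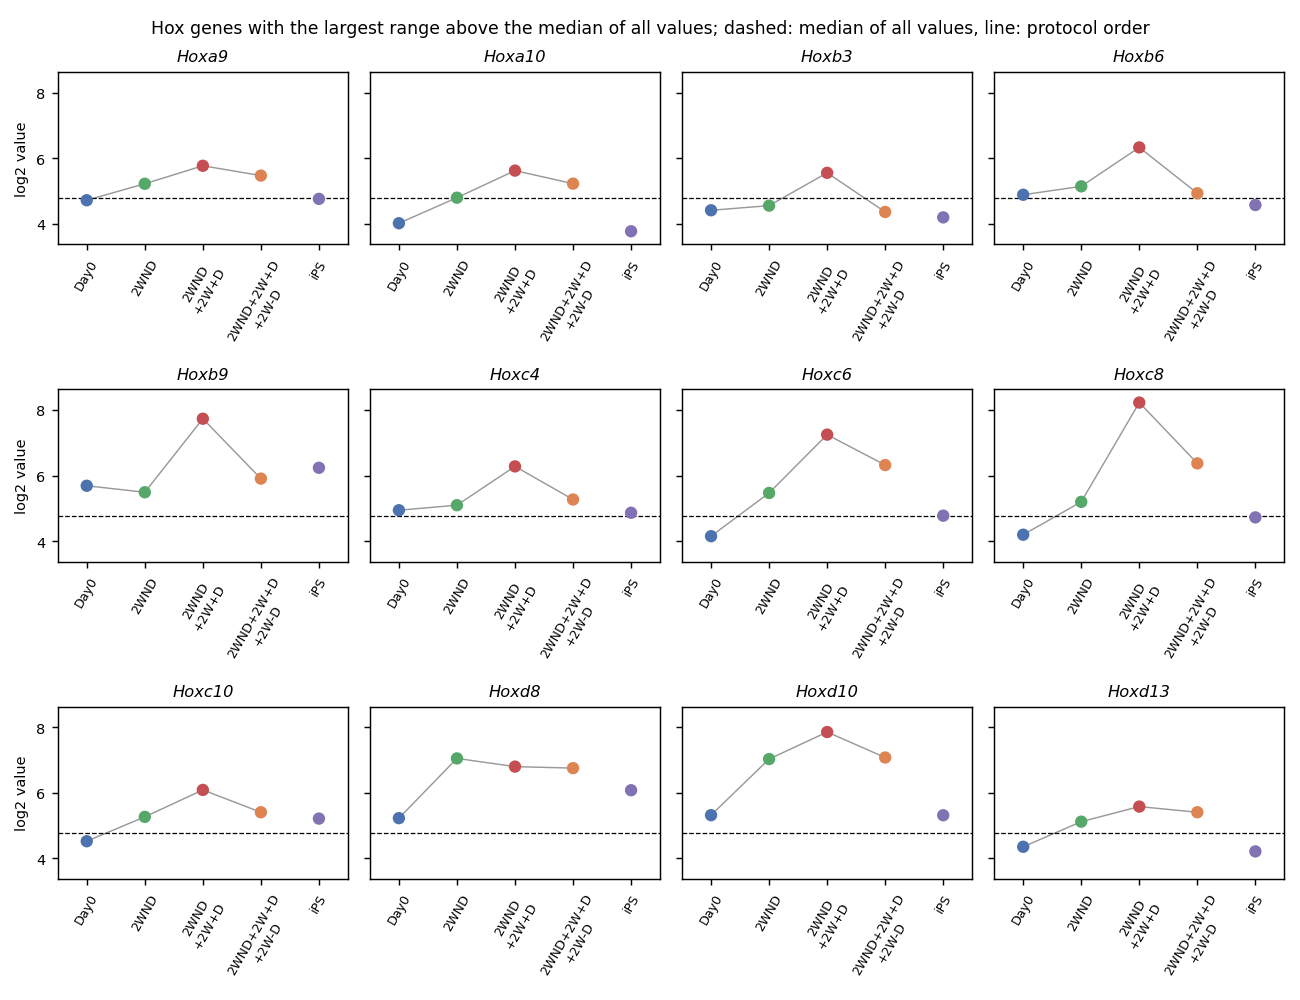
Log2 value (vertical axis) of the Hox genes with the widest range after values below the floor are raised to it, on the 5 arrays (horizontal axis, protocol order), 1 panel a gene, 1 point an array, with the floor of 4.78 dashed and lines in protocol order. Hoxc8, Hoxb9, Hoxc6, Hoxb6 and Hoxc4 peak at 2WND+2W+D, whereas Hoxd8 and Hoxd10 are already near 7 on 2WND; levels should be read within a panel, not between panels.

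For 26 of the 36 Hox genes (72.2%) the highest of the 5 values was on the array labelled 2WND+2W+D, against 17.98% of all genes and 17.6% of the genes in the Hox range of mean values. The genes highest with Dox were 7 of 10 anterior, 6 of 11 central and 13 of 15 posterior genes. By cluster they were 3 of 9 Hoxa, 8 of 10 Hoxb, 8 of 9 Hoxc and 7 of 8 Hoxd genes. These ranks use deposited values. They include Hoxc5, Hoxd1 and the posterior genes Hoxb13, Hoxc11, Hoxd9 and Hoxd12, which were below the floor on every array. Some margins were small: Hoxb13 read 4.27 on 2WND+2W+D and 4.25 on iPS, and Hoxd3 read 4.86 on 2WND+2W+D and 4.82 on Day0. Of the remaining genes, 3 were highest on Day0, all of them anterior, 3 on 2WND, 3 on 2WND+2W+D+2W-D and 1, Hoxc13, on iPS. Over all genes the shares were 26.0%, 12.6%, 12.2% and 31.3%, in the same order. The 3 on Day0 were Hoxa3, below the floor throughout, and Hoxa4 and Hoxb1, with ranges of only 0.33 and 0.39. The Hoxa cluster thus held fewer genes with a Dox peak than the other clusters.

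The first comparison asked what 2 weeks of culture on feeders did to the Hox pattern of fresh AEC-II cells. Hoxd8 and Hoxd10, on either side of Hoxd9 in the Hoxd cluster, were higher on 2WND than on Day0, and no Hox gene was lower. Hoxd9 itself stayed below the floor on every array. Hoxd8, a central gene of the trunk, read 5.23 on Day0, 7.05 on 2WND, 6.80 on 2WND+2W+D, 6.75 on 2WND+2W+D+2W-D and 6.08 on iPS. The gain from Day0 to 2WND was 3.54-fold, and the 3 cultures stayed within 0.30 of each other, all above Day0 and iPS. Hoxd10, which acts in limb and in lumbar motor neurons, read 5.32 on Day0, 7.03 on 2WND, 7.85 on 2WND+2W+D, 7.08 on 2WND+2W+D+2W-D and 5.32 on iPS. Its gain into culture was 3.27-fold, its value with Dox was 0.82 above 2WND, and iPS stood at the level of Day0. The gene models of Hoxd10 and Hoxd11 overlap, so that their probes may share transcript.

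These 2 genes were 5.56% of the Hox genes, and 5.49% of all genes were called higher between the same arrays, so that the count was near the background. Lower calls were 3.26% of all genes. Without the floor 4 genes passed, Hoxc6 and Hoxc8 being the added ones. As deposited, 24 of the 36 Hox differences were above 0 (66.7%), against 47.6% of all genes, with a median of 0.15 against -0.02. With the floor, the class medians were 0.00 for anterior, 0.00 for central and 0.00 for posterior genes, with 0, 1 and 1 genes called. As deposited, above 0 were 4 of 10 anterior, 10 of 11 central and 10 of 15 posterior genes, with medians of -0.13, 0.26 and 0.27. The spread of 0.28 given above is that of single genes and does not measure how far a class median varies. At or above the floor, anterior genes numbered 4 on Day0 and 3 on 2WND, central genes 5 and 7, and posterior genes 3 and 6. Of the 36 deposited differences, 22 were within the spread of 0.28. Over all genes the lower and upper quartiles of the same difference were -0.28 and 0.26. Differences within that spread were therefore common among all genes and do not by themselves set the Hox genes apart.

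The promoters of the called Hoxd genes are shown as the 250 bases before the RefSeq start (build GRCm38.p6), with each CG in capitals. Hoxd8 lies on the plus strand at chr2:74704365-74704614, with 6 CG and 44.4% GC, and Hoxd10 on the plus strand at chr2:74691641-74691890, with 20 CG and 65.6% GC.
Hoxd8: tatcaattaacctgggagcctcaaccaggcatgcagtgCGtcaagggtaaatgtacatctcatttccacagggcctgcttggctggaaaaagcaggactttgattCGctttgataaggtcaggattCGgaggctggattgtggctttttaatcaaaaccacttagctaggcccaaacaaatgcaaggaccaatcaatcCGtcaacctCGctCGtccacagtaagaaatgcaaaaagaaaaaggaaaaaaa
Hoxd10: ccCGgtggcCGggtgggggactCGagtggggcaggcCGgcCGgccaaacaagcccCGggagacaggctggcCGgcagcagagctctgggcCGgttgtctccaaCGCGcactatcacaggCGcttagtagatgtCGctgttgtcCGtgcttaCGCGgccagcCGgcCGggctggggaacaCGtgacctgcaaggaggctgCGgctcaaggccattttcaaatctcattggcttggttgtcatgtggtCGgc
The promoter table held 24 promoters of 22 Hox genes among 32851. The Hox promoters had a median of 12.5 CG, with a range of 2 to 35, against 6 over all promoters, so that Hoxd8 is at the median of all promoters and Hoxd10 above that of the Hox promoters.

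Partners and upstream genes of the Hox pathway were compared between the same arrays, where 5.49% of all genes were higher and 3.26% lower. The lists are short, so that few or no calls in a list say little about it. Of 8 measured TALE homeodomain genes, whose proteins bind DNA together with Hox proteins, Meis1 and Meis2 were higher and none was lower. Meis1 was below the floor on Day0 at 4.63 and read 6.83 on 2WND, at least 4.12-fold higher. Meis2 read 5.58 and 7.83, a 4.74-fold gain. Gdf11, a secreted factor that in the mouse embryo sets where posterior Hox expression begins, read 4.94 and 7.01, a 4.22-fold gain. Cdx1, Cdx2 and Cdx4, upstream activators of Hox genes in the embryo, read 3.69 to 4.89 over the 5 arrays, and Egr2, a hindbrain regulator of Hoxa2 and Hoxb2, was 3.95-fold higher. Of 13 retinoic acid pathway genes, which act upstream of anterior Hox genes in the embryo, Aldh1a1, an enzyme of retinoic acid synthesis, was 2.78-fold and Crabp2, a binding protein, 2.14-fold higher. No gene was called among 15 Polycomb genes, and of 10 genes that flank the clusters Snx10 was 3.78-fold higher.

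Listed transcription factors of limb and trunk mesenchyme and of lung mesenchyme were counted in the same comparison, in which 5.49% of all genes were higher. Whether these lists mark a body site in such cells was not tested. Of 17 measured limb and trunk factors 4 were higher and none lower: Tbx15 at least 13.5-fold, Twist1 at least 12.01-fold, Prrx1 10.8-fold and Prrx2 2.61-fold. On iPS these 4 read 5.71, 8.10, 7.85 and 6.89, in the same order. Of 9 lung mesenchyme factors, Tbx4 and Tbx5 among them, none was called in either direction, and the difference between the lists was not tested. When no floor was used, Foxf2 of the lung list (1.13) and Emx2 of the limb and trunk list (1.93) also passed. Both Foxf2 values were below the floor. Tbx4 read 5.82 on Day0 and 5.43 on 2WND, and Tbx5 read 5.10 and 5.97. All 10 fibroblast markers were higher on 2WND, by a median of 3.96, and all 4 macrophage markers were higher, by a median of 4.88. The part of feeder cells or other cell types in the Hox values was not tested.

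**Figure D2:**
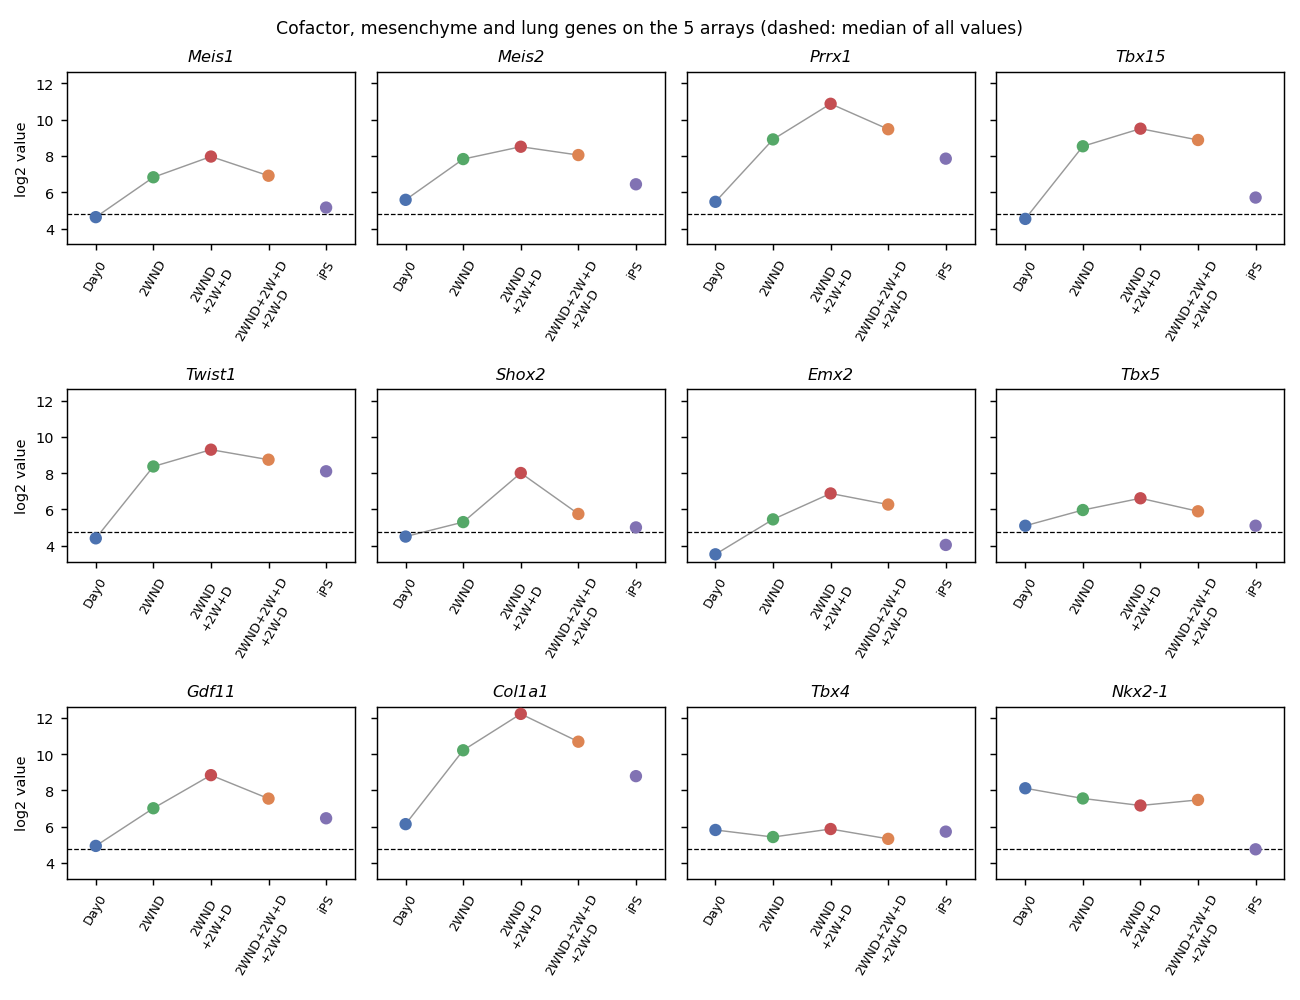
Log2 values of genes set beside the Hox genes on the 5 arrays, 1 point an array, with the floor of 4.78 dashed. Lines join the arrays in protocol order. Meis1, Meis2, Gdf11, Prrx1, Tbx15 and Twist1 are at least 2-fold higher on 2WND than on Day0, whereas Tbx4 and Tbx5 move by less than 1; the genes drawn were chosen after their values were known.

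The second comparison asked how Hox genes stood after Dox induction, by the labels. The array labelled 2WND+2W+D carried 5 Hox genes that were higher than on 2WND (Hoxc8, Hoxb9, Hoxc6, Hoxb6 and Hoxc4), 13.9% of the Hox genes against 4.25% of all genes and 4.36% of genes in the Hox range of mean values. No Hox gene was lower, against 4.68% of all genes. As deposited, 30 of 36 Hox differences were above 0 (83.3%), against 47.0% of all genes, with a median of 0.46 against -0.03, and 0.12 with the floor. Without the floor 8 genes passed, with Hoxb2, Hoxb3 and Hoxb7 added. None of the 5 was among the 2 genes called higher on 2WND than on Day0, where 5.49% of all genes were higher. Counts this small give no information on overlap. Hoxc6 and Hoxc8 passed in both comparisons when no floor was used.

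Hoxc8, a central gene that patterns the thoracic skeleton and brachial motor neurons, read 4.20 on Day0, 5.20 on 2WND, 8.23 on 2WND+2W+D, 6.37 on 2WND+2W+D+2W-D and 4.73 on iPS. It was 8.15-fold higher with Dox than on 2WND, the largest difference of any Hox gene in the 6 comparisons made here. The array after withdrawal lay between 2WND and Dox, 3.62-fold below Dox and 2.26-fold above 2WND. Hoxb9, a posterior gene of the thorax, read 5.69 on Day0, 5.49 on 2WND, 7.73 on 2WND+2W+D, 5.91 on 2WND+2W+D+2W-D and 6.24 on iPS. Its rise with Dox was 4.73-fold and its fall after withdrawal 3.55-fold, and the other 4 arrays lay within 0.75 of each other.

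Hoxc6, a central thoracic gene, read 4.15 on Day0, 5.47 on 2WND, 7.25 on 2WND+2W+D, 6.32 on 2WND+2W+D+2W-D and 4.78 on iPS, with a 3.43-fold rise. It resembled Hoxc8 in that 2WND and the withdrawal array stood above Day0 and iPS. Hoxb6, its paralog in the Hoxb cluster, read 4.89 on Day0, 5.15 on 2WND, 6.33 on 2WND+2W+D, 4.94 on 2WND+2W+D+2W-D and 4.58 on iPS, with a 2.28-fold rise. Hoxc4, the anterior gene at the end of the Hoxc cluster, read 4.94 on Day0, 5.10 on 2WND, 6.28 on 2WND+2W+D, 5.27 on 2WND+2W+D+2W-D and 4.87 on iPS, with a 2.27-fold rise. For both, the array labelled 2WND+2W+D alone stood apart, and the other 4 lay within 0.57 of each other for Hoxb6 and 0.40 for Hoxc4.

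Of these 5 genes only Hoxc4 had a promoter in the table, on the plus strand at chr15:103034145-103034394, with 8 CG and 62% GC, shown with CG in capitals.
Hoxc4: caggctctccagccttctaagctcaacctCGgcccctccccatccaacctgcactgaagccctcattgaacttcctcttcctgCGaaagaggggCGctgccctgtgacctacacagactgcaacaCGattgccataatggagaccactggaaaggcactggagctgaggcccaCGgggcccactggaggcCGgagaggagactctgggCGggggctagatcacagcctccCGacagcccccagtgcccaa
A search for 3 motifs covered both strands of the 250 bases. The Hox and Pbx motif TGATNNAT was in 4 of the 24 Hox promoters (16.7%) against 7.68% of all, the Meis motif TGACAG in 2 (8.33%) against 15.9%, and the TATA box TATAAA in 4 (16.7%) against 12.4%. None of the 3 promoters printed here held any of them.

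Anterior and posterior genes were not set apart by their calls with Dox. The calls were 1 of 10 anterior, 3 of 11 central and 1 of 15 posterior genes. Above 0 as deposited were 9 anterior, 7 central and 14 posterior genes, with median differences of 0.61, 0.60 and 0.44. With the floor the medians were 0.11 for anterior, 0.10 for central and 0.29 for posterior genes, so that the order of the classes depended on the floor. At or above the floor on the array labelled 2WND+2W+D were 8 of 10 anterior, 8 of 11 central and 9 of 15 posterior genes, from 3, 7 and 6 on 2WND. The clusters differed more than the classes did, with deposited medians of 0.10 for Hoxa, 0.99 for Hoxb, 0.80 for Hoxc and 0.37 for Hoxd, and with 2 calls in Hoxb, 3 in Hoxc and none in Hoxa or Hoxd. Genes of a cluster are neighbours on 1 chromosome and are not replicates of each other. Of 10 measured genes that flank the clusters none was called, where 4.25% of all genes were higher and 4.68% lower. Their deposited median difference was -0.19.

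**Figure D3:**
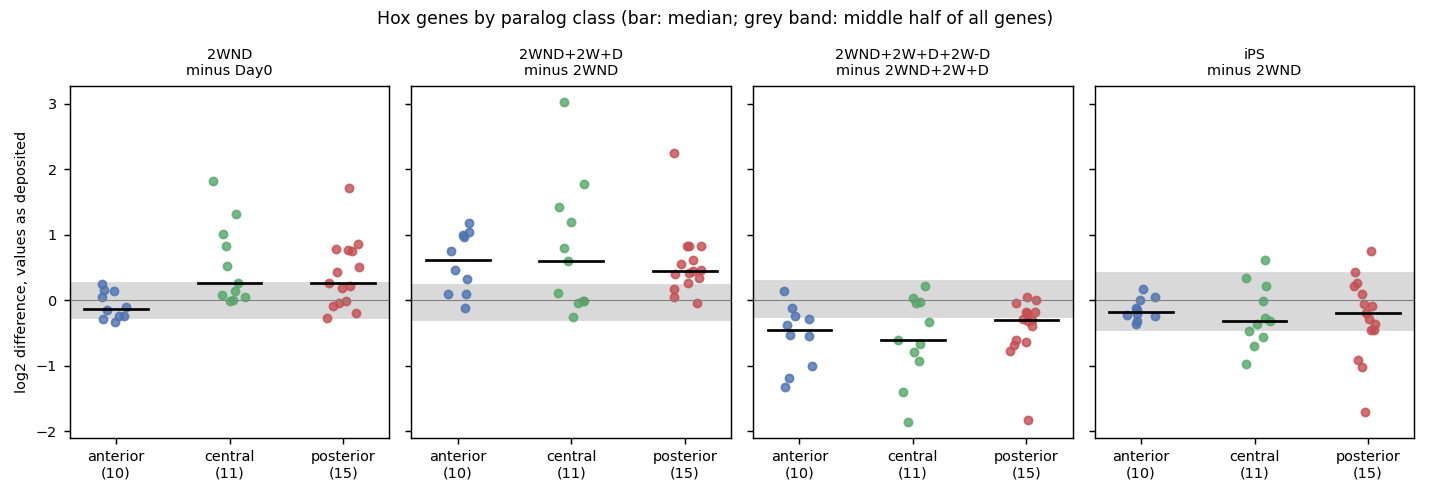
Log2 difference of each Hox gene as deposited (vertical axis) by paralog class (horizontal axis) in 4 comparisons, 1 point a gene, with the class median as a bar and the middle 50% of all genes as a grey band. For 2WND minus Day0 the anterior median is -0.13 and the central and posterior medians are 0.26 and 0.27, whereas for 2WND+2W+D minus 2WND all 3 class medians are above the band.

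**Figure D4:**
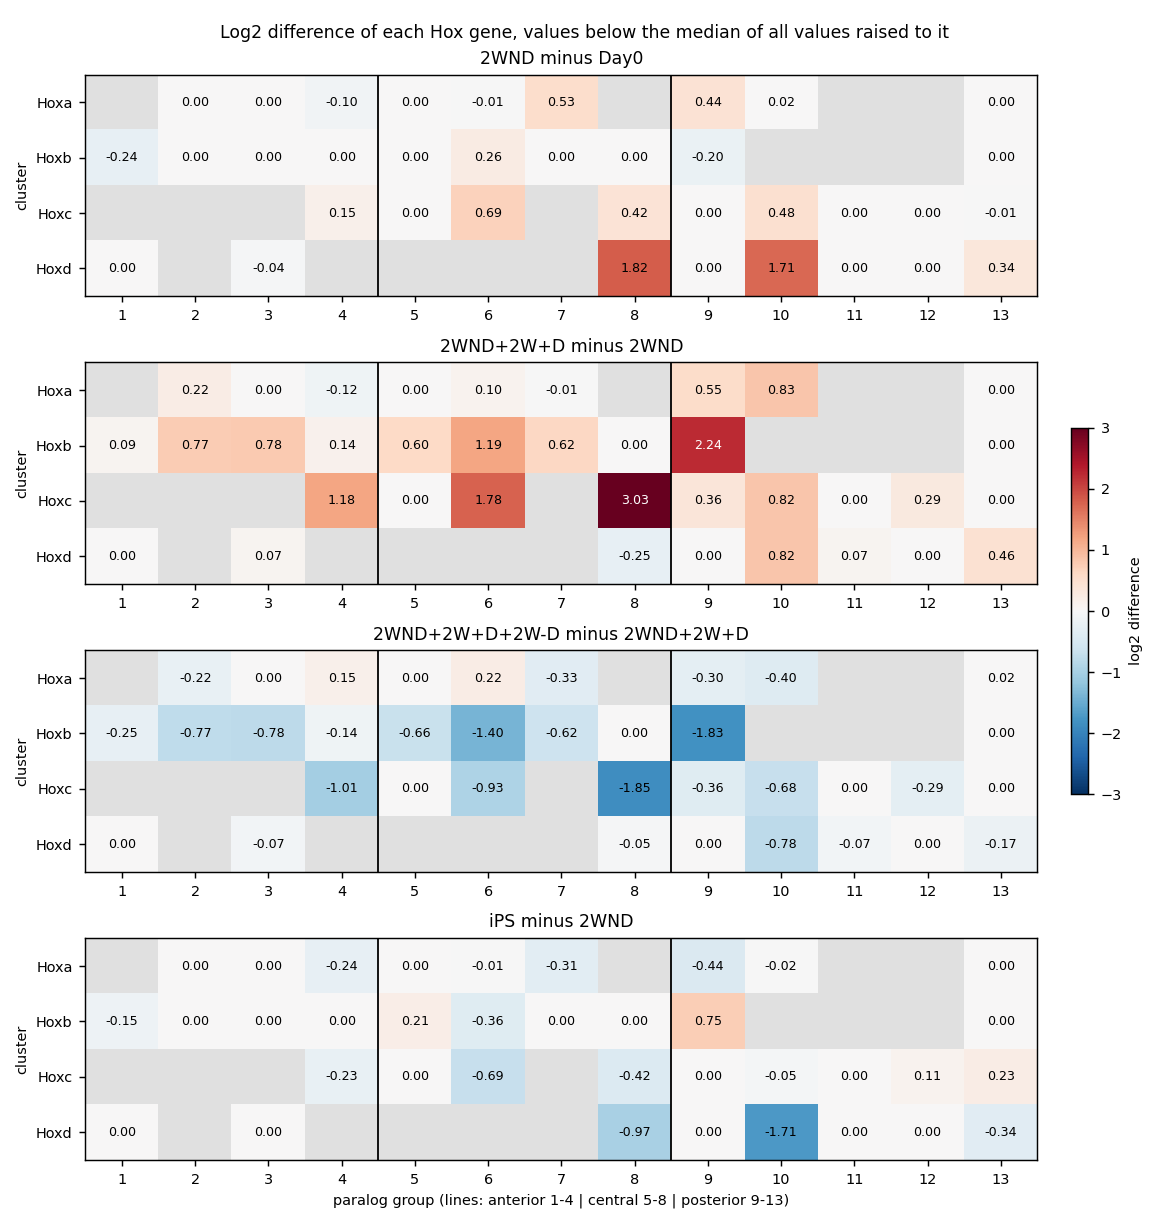
Log2 difference of each Hox gene, after values below 4.78 were raised to it, by cluster (rows) and paralog group (columns) in 4 comparisons, with vertical lines between anterior, central and posterior groups. Red cells gather in Hoxb and Hoxc for 2WND+2W+D minus 2WND and turn blue for 2WND+2W+D+2W-D minus 2WND+2W+D; plain grey marks a place with no gene analysed here.

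The anterior Hoxb genes were near the floor except with Dox. Hoxb2, which patterns the hindbrain, read 4.46 on Day0, 4.51 on 2WND, 5.55 on 2WND+2W+D, 4.23 on 2WND+2W+D+2W-D and 4.40 on iPS. Hoxb3, another hindbrain gene, read 4.42 on Day0, 4.56 on 2WND, 5.56 on 2WND+2W+D, 4.37 on 2WND+2W+D+2W-D and 4.20 on iPS. Hoxb4, used in blood progenitors, read 4.28 on Day0, 3.95 on 2WND, 4.92 on 2WND+2W+D, 4.38 on 2WND+2W+D+2W-D and 3.95 on iPS. All 3 reached the floor with Dox alone, and the gene models of Hoxb3 and Hoxb4 overlap. Hoxb1, the hindbrain gene at the anterior end, read 5.19 on Day0, 4.96 on 2WND, 5.05 on 2WND+2W+D, 4.80 on 2WND+2W+D+2W-D and 4.81 on iPS, and was highest in fresh cells.

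Of the central Hoxb genes, Hoxb5, Hoxb6 and Hoxb7 were highest with Dox and Hoxb8, below the floor throughout, was not. Hoxb5, used in lung branching in the mouse, read 5.08 on Day0, 5.09 on 2WND, 5.69 on 2WND+2W+D, 5.03 on 2WND+2W+D+2W-D and 5.29 on iPS. It was the 1 Hox gene with 2 probes, and the other read 4.78 on Day0, 5.04 on 2WND, 5.96 on 2WND+2W+D, 4.91 on 2WND+2W+D+2W-D and 4.71 on iPS. Both probes were highest with Dox. Hoxb7, a trunk gene, read 3.95 on Day0, 3.99 on 2WND, 5.40 on 2WND+2W+D, 4.61 on 2WND+2W+D+2W-D and 4.60 on iPS, above the floor with Dox alone.

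Posterior Hoxc genes differed less with Dox than Hoxc6 and Hoxc8 did. Hoxc9, a thoracic gene, read 4.34 on Day0, 4.52 on 2WND, 5.14 on 2WND+2W+D, 4.50 on 2WND+2W+D+2W-D and 4.33 on iPS. Hoxc10, a lumbar and hindlimb gene, read 4.52 on Day0, 5.27 on 2WND, 6.09 on 2WND+2W+D, 5.41 on 2WND+2W+D+2W-D and 5.21 on iPS. Hoxc12 read 4.46 on Day0, 4.68 on 2WND, 5.07 on 2WND+2W+D, 4.75 on 2WND+2W+D+2W-D and 4.89 on iPS. Each was highest with Dox, by less than 2-fold over 2WND. Hoxc13, which acts in hair and nail, read 4.79 on Day0, 4.74 on 2WND, 4.70 on 2WND+2W+D, 4.71 on 2WND+2W+D+2W-D and 5.01 on iPS, a range of 0.31.

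The other Hoxd genes included limb genes with small gains. Hoxd13, which patterns the digits, read 4.35 on Day0, 5.12 on 2WND, 5.58 on 2WND+2W+D, 5.41 on 2WND+2W+D+2W-D and 4.21 on iPS. Hoxd11, which patterns the forearm, read 3.58 on Day0, 4.43 on 2WND, 4.86 on 2WND+2W+D, 4.67 on 2WND+2W+D+2W-D and 3.98 on iPS. In both, as in Hoxd10, the 3 cultures stood above Day0 and iPS. Hoxd3, an anterior gene, read 4.82 on Day0, 4.53 on 2WND, 4.86 on 2WND+2W+D, 4.74 on 2WND+2W+D+2W-D and 4.58 on iPS, all within 0.32.

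Hoxa genes were flatter. Hoxa4 read 5.58 on Day0, 5.48 on 2WND, 5.37 on 2WND+2W+D, 5.51 on 2WND+2W+D+2W-D and 5.25 on iPS. Hoxa6 read 5.35 on Day0, 5.34 on 2WND, 5.44 on 2WND+2W+D, 5.67 on 2WND+2W+D+2W-D and 5.33 on iPS. Hoxa7 read 5.07 on Day0, 5.60 on 2WND, 5.59 on 2WND+2W+D, 5.26 on 2WND+2W+D+2W-D and 5.28 on iPS. These genes of the neck and trunk were above the floor on every array and moved by at most 0.53 between any 2 of them. The gene models of Hoxa4 and Hoxa6 overlap that of Hoxa3.

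Posterior Hoxa genes had higher values in culture. Hoxa9, best known in blood progenitors, read 4.72 on Day0, 5.23 on 2WND, 5.77 on 2WND+2W+D, 5.48 on 2WND+2W+D+2W-D and 4.77 on iPS. Hoxa10, needed in the uterus, read 4.02 on Day0, 4.80 on 2WND, 5.63 on 2WND+2W+D, 5.23 on 2WND+2W+D+2W-D and 3.78 on iPS. Both were at or above the floor on the 3 cultures and below it on Day0 and iPS. Hoxa13, a gene of the digits and genital tract, read 4.28 on Day0, 4.71 on 2WND, 4.75 on 2WND+2W+D, 4.80 on 2WND+2W+D+2W-D and 4.62 on iPS. Hoxa2, which patterns the second pharyngeal arch, read 4.0 on Day0, 4.25 on 2WND, 5.01 on 2WND+2W+D, 4.46 on 2WND+2W+D+2W-D and 3.93 on iPS, and reached the floor with Dox alone.

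Beside the Hox genes, mesenchymal genes also read higher with Dox. Fibroblast markers were higher for 6 of 10, with a median difference of 1.52. Limb and trunk factors were higher for 4 of 17 (Shox2 6.52-fold, Prrx1 3.90-fold, Emx2 2.69-fold and Meox2 2.39-fold) and lower for none. Of 9 lung mesenchyme factors none was called, where 4.25% of all genes were higher, but 6 were above 0 with a median of 0.44, led by Tbx3 at 0.97. Meis1 was 2.21-fold and Gdf11 3.54-fold higher, and of the retinoic acid pathway Crabp1 was 4.27-fold and Crabp2 2.07-fold higher and Aldh1a1 5.72-fold lower. All 4 macrophage markers were lower. No gene was called among 15 Polycomb genes, which keep Hox clusters silent, or among 9 genes of the Trithorax and histone demethylase list, which oppose them. The part of fibroblast content in the Hox difference was not tested.

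The third comparison asked whether the Hox values went back when Dox was removed. By the study's account this step also brought a further passage, and it added 2 weeks of culture. No Hox gene was higher on 2WND+2W+D+2W-D than on 2WND+2W+D and 4 were lower: Hoxc8 3.62-fold, Hoxb9 3.55-fold, Hoxb6 2.63-fold and Hoxc4 2.01-fold. These were 11.1% of the Hox genes, and 3.74% of all genes were called lower and 5.04% higher. Hoxc4 was at the threshold and fell below it when the arrays were rescaled, at -0.92 after quantile normalization and -0.90 with medians aligned. Hoxc6, the other gene called higher with Dox, was lower by less than the threshold, with a difference of -0.93. As deposited, 5 of 36 differences were above 0, against 50.7% of all genes. Fibroblast markers were lower for 4 of 10, with a median of -0.94, and limb and trunk factors for 3 of 17 (Shox2 4.78-fold, Prrx1 2.64-fold and Meox2 2.42-fold). Meis1 was 2.08-fold and Gdf11 2.45-fold lower, Crabp1 was 3.64-fold and Crabp2 2.25-fold lower, Aldh1a1 was 7.26-fold higher, and all 4 macrophage markers were higher.

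Set against 2WND, the array after withdrawal kept 1 Hox call. Hoxc8 was 2.26-fold higher, where 0.473% of all genes were called higher and 0.194% lower, and Hoxc6 was next at 0.85. The other 4 genes called higher with Dox were within 2-fold of 2WND. The root mean square difference of the Hox genes between these arrays was 0.337, against 0.308 over all genes and 0.354 over the genes in the Hox range of mean values. This comparison shares an array with each of the 2 before it, so that the differences are not separate evidence.

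On the iPS array the Hox values were close to those on Day0, while the rest of the transcriptome differed more. Most Hox genes were below the floor on both arrays. No Hox gene was called in either direction, where 12.3% of all genes were called higher and 10.7% lower. Over the genes in the Hox range of mean values the shares were 11.1% and 7.15%. At or above the floor were 12 of the 36 Hox genes on Day0 and 12 on iPS. A gene below the floor on both arrays could not be called. The root mean square difference between iPS and Day0 was 0.375 over the Hox genes and 1.28 over all genes. It was 1.20 over the genes in the Hox range of mean values. With the floor, the largest gains from Day0 to iPS were 0.85 for Hoxd8 and 0.55 for Hoxb9. As deposited, Hoxc10 (0.69), Hoxb7 (0.65) and Hoxc6 (0.63) also gained more than Hoxb9, and all 10 anterior genes were lower on iPS than on Day0, with differences of -0.39 to -0.06, whereas 8 of 11 central and 9 of 15 posterior genes were higher. Compared with 2WND, Hoxd10 was 3.28-fold lower on iPS and no Hox gene was higher, where 11.2% of all genes were lower and 9.93% higher. Over the genes in the Hox range of mean values, 6.81% were lower and 10.4% higher. Hoxd8 was 0.97 lower, just short of the threshold, and Hoxa10 passed it only without the floor.

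Regulators of the clusters did move on iPS. Between iPS and 2WND, 9.93% of all genes were higher and 11.2% lower. Of 15 Polycomb genes 10 were higher than on 2WND, led by Phc1 (10.2-fold), Ezh2 (8.16-fold), Mtf2 (6.87-fold) and Suz12 (4.93-fold), and Bmi1 was 3.34-fold lower. Of the 9 genes that oppose Polycomb, Ash2l (5.90-fold), Wdr5 (4.42-fold) and Dot1l (3.21-fold) were higher. Meis1 was 3.18-fold and Meis2 2.62-fold lower. Fibroblast markers on iPS were lower than on 2WND for 8 of 10, yet higher than on Day0 for 9 of 10. Twist1 and Prrx1 of the limb and trunk factors were also higher on iPS than on Day0, where 12.3% of all genes were higher.

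MicroRNAs encoded inside the clusters repress Hox transcripts, and in the mouse miR-196 cuts the Hoxb8 transcript. Their mature sequences are shown from RefSeq (GRCm38.p6) with the seed, bases 2 to 8, in capitals, since the seed decides which transcripts are paired. The miR-196 sequences lie at chr11:96265187-96265208 (plus strand, Mir196a-1), chr15:102973365-102973386 (plus strand, Mir196a-2) and chr6:52230129-52230150 (minus strand, Mir196b). Those of miR-10 lie at chr11:96317186-96317208 (plus strand, Mir10a) and chr2:74726074-74726096 (plus strand, Mir10b).
mmu-miR-196a-5p: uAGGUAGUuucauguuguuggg
mmu-miR-196b-5p: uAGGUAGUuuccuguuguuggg
mmu-miR-10a-5p: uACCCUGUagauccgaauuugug
mmu-miR-10b-5p: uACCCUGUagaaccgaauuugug
The first pair shares 1 seed and the second pair another. Of 18 listed noncoding RNAs of the clusters 7 had a probe, and none was called in the 3 steps from Day0 through withdrawal or on iPS. Mir196a-1, between Hoxb9 and Hoxb13, read 3.69 on Day0, 3.54 on 2WND, 4.87 on 2WND+2W+D, 5.73 on 2WND+2W+D+2W-D and 4.99 on iPS. Unlike Hoxb9, it was highest after withdrawal. Mir196a-2 read 2.93 to 3.36 and Mir10b 2.23 to 2.94 over the 5 arrays, below the floor throughout. Such probes read the precursor, and the mature forms were not measured.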

How the data were processed

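Biotin-labelled total RNA of 5 conditions was hybridised to Mouse Gene ST arrays, 1 each. The authors processed the scans with Affymetrix Expression Console and deposited log2 values per probe set. The background correction and normalization method is not given in the sources used here, and no scanner intensities were used. Arrays have no read depth, and their number, 1 per condition, limits the precision.

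The deposited table held 41345 probes: 23521 with 1 gene symbol, 1820 with several and 16004 unnamed here. Names came from the platform annotation, and the 37 Hox probes all matched RefSeq genes of GRCm38.p6. The probe with the highest mean stood for each of 22180 genes. Values below the median of all values, 4.78, were raised to it, and a difference of 1 on the log2 scale was called. Every Hox gene at the floor or above on at least 1 array was printed with all its values, the others by count and range, and of other lists the called members and defining markers. The members and lists were chosen with earlier results of these data known.

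Each difference compares 2 arrays, not conditions, and no p-value was computed. Alternatives were quantile normalization, aligned array medians, no floor, a floor at the 75th percentile, a 4-fold threshold, the mean over a gene's probes, a filter on genes below the floor throughout and other class edges. The calling steps were tested on simulated data, with 4-fold changes in genes well above the floor. That simulation does not cover changes near 2-fold or genes near the floor, where most Hox genes lie. Tables were handled with pandas 2.3.3 and numpy 2.4.6 in Python 3.11.15, and plots were drawn with matplotlib 3.10.9.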

Additional observations from a re-analysis of the deposited data

Results flagged for a closer look

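A probe outside the set above carried a signal. The probe named for both Mira and Hoxa7, left out because it has 2 symbols, read 5.00 on Day0, 6.13 on 2WND, 5.89 on 2WND+2W+D, 6.68 on 2WND+2W+D+2W-D and 4.77 on iPS. It was 1.13 higher on the log2 scale on 2WND than on Day0, the control for culture, and its difference of iPS from 2WND was -1.35. It cannot be assigned to either gene.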

How the results depend on the processing

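No Hox call reversed in sign under any of the alternatives run. Only quantile normalization and aligned medians could have changed the sign of a called difference, so that the other alternatives were no check of it. Quantile normalization and aligned medians left the counts of Hox genes called as they were, except that the 4 genes lower after withdrawal became 3, and the mean over probes changed no count. The floor mattered most, since many Hox values lie near it. As deposited, with no floor, 4 genes were higher on 2WND than on Day0 (2 of them Hoxc, 3 central) and 8 were higher with Dox (5 Hoxb, 3 anterior), and 2 were lower on iPS than on 2WND. The medians were then 0.46 over all Hox genes, 0.61 over anterior and 0.60 over central genes with Dox, and 0.26 over central and 0.27 over posterior genes for 2WND minus Day0. With the floor at the 75th percentile, 1 gene was higher with Dox (Hoxc8, a central Hoxc gene) and 1 lower after withdrawal. Counts of 0 were left there for 2WND minus Day0, for withdrawal minus 2WND, for iPS minus 2WND and for Hoxb, Hoxd, anterior and posterior genes, and the posterior median with Dox was 0.00. At 4-fold, 2 genes were higher with Dox (Hoxc8 and Hoxb9) and 0 passed in the other comparisons. With anterior set to groups 1 to 3, 0 anterior genes were higher with Dox. With anterior set to groups 1 to 5, the central median was 0.34 for 2WND minus Day0 and 0.36 with Dox. No paired analysis was possible because each condition has 1 array.

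With 1 array per condition, an array effect and a condition cannot be told apart, and Dox came with passage, another medium and more time in culture. Faint probes limit what can be seen: a value below the floor does not show that a Hox gene was silent. The RNA is of mixed cultures, so that the cell type that carries a Hox transcript is not known.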

Other observations

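Of the 7 probes with a Hox symbol among several, 2 were named for Hoxa11 and its antisense gene Hoxa11os, the forearm gene that had no probe of its own. The brighter read 4.32 on Day0, 5.57 on 2WND, 5.79 on 2WND+2W+D, 6.07 on 2WND+2W+D+2W-D and 4.67 on iPS. The other read 3.90 on Day0, 4.73 on 2WND, 5.03 on 2WND+2W+D, 4.66 on 2WND+2W+D+2W-D and 4.26 on iPS. Both were higher on the 3 cultures than on Day0 and on iPS, though the second passed the floor with Dox alone. The sense and antisense transcripts cannot be told apart in these names. The probe shared by Hoxd3 and Hoxd4 read 4.93 on Day0, 4.86 on 2WND, 5.23 on 2WND+2W+D, 4.74 on 2WND+2W+D+2W-D and 4.23 on iPS.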
